A study of Mus musculus with 5 samples.

Results

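The 10 genes described here encode the core of the mouse microRNA pathway: Drosha, Dgcr8 and Dicer1, which make microRNAs; Ago1, Ago2, Ago3 and Ago4, the Argonautes that hold them; and Tnrc6a, Tnrc6b and Tnrc6c, the GW182 scaffolds that act with Argonaute on target mRNA. They were chosen by symbol, and each symbol matched exactly 1 of the 32285 features counted in every library. The cells were dissociated from the lungs of E18.5 mouse embryos, 2 heterozygous for Zswim8 (Zswim8+/–, called Het) and 3 lacking it (Zswim8–/–, called KO), with 1 droplet library of 3′ end tags per embryo. The Het embryos, which carry 1 intact allele, are the controls, and no wild-type lung was analysed here. The lungs were digested with collagenase and DNase and went through a red blood cell lysis step before capture.

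A primary microRNA transcript is cut in the nucleus by the Microprocessor, in which Drosha is the RNase III enzyme and Dgcr8 the double-stranded RNA-binding partner that positions it. Dicer1 cuts the exported hairpin, the mature strand is loaded into an Argonaute protein, and the Tnrc6 proteins link Argonaute to the deadenylases that shorten the target's poly(A) tail. ZSWIM8 is known as the substrate receptor of a ubiquitin ligase that marks Argonaute for destruction when a microRNA meets a highly complementary target, a route by which that microRNA is lost. The libraries measure mRNA only, so nothing here bears on Argonaute protein or on microRNA levels.

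The libraries held 8722 to 13539 barcodes and 56608582 to 93708304 UMIs (unique molecular identifiers, 1 per captured RNA molecule). Filters on genes, mitochondrial share and doublets left 3051 to 4634 cells per library, 18869 in all, with a median of 9714 to 12678 UMIs per cell. Any pair of libraries shared 0 to 7 barcodes. Haemoglobin-rich red-cell barcodes made up 21.4% to 48.7% of the barcodes and were kept out of every sum and test of lineages, classes and genotype. Their own levels are given further on beside low levels in other cells and, untested, by genotype at the end. Zswim8 itself did not check the labels: it stood at 36.8 and 38.4 CPM (each library's UMI counts scaled to the same total) in the Het libraries and at 38.4, 38.8 and 40.0 CPM in the KO libraries, and the deleted stretch is not given in the sources used here, so whether these 3′ tags lie inside it is not known. Sftpc, the surfactant gene that marks alveolar type 2 (AT2) cells, was present at 6879 to 12379 CPM in all 5 libraries. Y-linked and Xist UMIs showed that both Het embryos and KO library 3 were male and that KO libraries 1 and 2 were female, so sex and genotype are partly confounded.

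All 10 are protein-coding genes, placed here on GRCm38 with GENCODE gene models. Ago3 (chr4:126331704-126429556), Ago1 (chr4:126435012-126468583) and Ago4 (chr4:126489541-126533472) stand side by side on the minus strand, and Ago2 (chr15:73095844-73184935, minus strand) shares chromosome 15 with Drosha (chr15:12824815-12935291, plus strand) and Tnrc6b (chr15:80711313-80941085, plus strand). Dicer1 lies at chr12:104687742-104751952 on the minus strand, Dgcr8 at chr16:18253948-18289246 on the minus strand, Tnrc6a at chr7:123123885-123195296 on the plus strand and Tnrc6c at chr11:117654289-117763439 on the plus strand. The end of Dgcr8 overlaps Trmt2a on the opposite strand by 825 bases and the end of Ago2 overlaps Chrac1 by 1711 bases. Whether the counting used strand is not given in the sources used here, so reads from these overlaps cannot be assigned with certainty.

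The bases just before the start of Dgcr8 and Drosha are shown because, of these partners of a single complex, Dgcr8 was called in dividing cells and Drosha was not, as described further on. Each line runs 5′ to 3′ on the gene's own strand and is taken from the 250 bases before the RefSeq start site on GRCm38.p6, with every CCAAT (or ATTGG, its reverse complement) in capitals. The last 78 of these bases are left off for Dgcr8, because the GENCODE model of the gene already covers them.
Dgcr8, chr16:18289247-18289418, minus strand: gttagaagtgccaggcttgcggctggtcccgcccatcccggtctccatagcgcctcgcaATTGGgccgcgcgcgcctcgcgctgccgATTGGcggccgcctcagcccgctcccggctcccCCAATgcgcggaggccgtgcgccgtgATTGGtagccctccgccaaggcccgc
Drosha, chr15:12824565-12824814, plus strand: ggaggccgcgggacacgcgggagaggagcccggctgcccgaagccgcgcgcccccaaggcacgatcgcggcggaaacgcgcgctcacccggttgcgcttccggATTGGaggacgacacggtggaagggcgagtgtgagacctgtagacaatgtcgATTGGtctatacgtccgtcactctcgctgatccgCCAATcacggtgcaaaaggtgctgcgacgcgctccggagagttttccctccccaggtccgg
In these windows of 300 bases Dgcr8 had 4 matches to CCAAT and Drosha 3. One of the 2 Tnrc6b start sites also had 4, Dicer1 had 1, both Ago1 start sites had 1, and Ago3, Ago4, Tnrc6a, Tnrc6c and the other Tnrc6b start site had 0. Among 32851 mouse promoters of 300 bases (250 before and 50 after the start), 37.4% held at least 1 such match, 3.37% at least 3 and 1.06% at least 4. The strings TTTGAA (found in 17.9% of promoters), TTCGAA (1.56%) and TTTNNCGC (5.17%), searched on both strands and free of overlap with the CCAAT matches, were in neither window of 300 bases, which says only that these letters are not there. Promoter entries were found for 9 of the 10 genes.

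In whole lung, none of the 10 genes differed between KO and Het past the threshold. The largest differences were in Tnrc6b, Ago3 and Ago1, all somewhat higher in KO, while Dgcr8, Tnrc6c and Ago4 were level. Here a library's level is its UMIs summed over all kept cells, scaled by TMM to CPM, so fewer expressing cells and less RNA per cell cannot be told apart. The scaling is set anew in each fit, so the same cells have other CPM values in the fits by genotype, by lineage, by class and by cycling, and levels are compared only within a fit. The test was edgeR's quasi-likelihood test with Benjamini-Hochberg adjustment over 17729 genes at 0.05, with each embryo's library as 1 replicate.

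**Figure D1:**
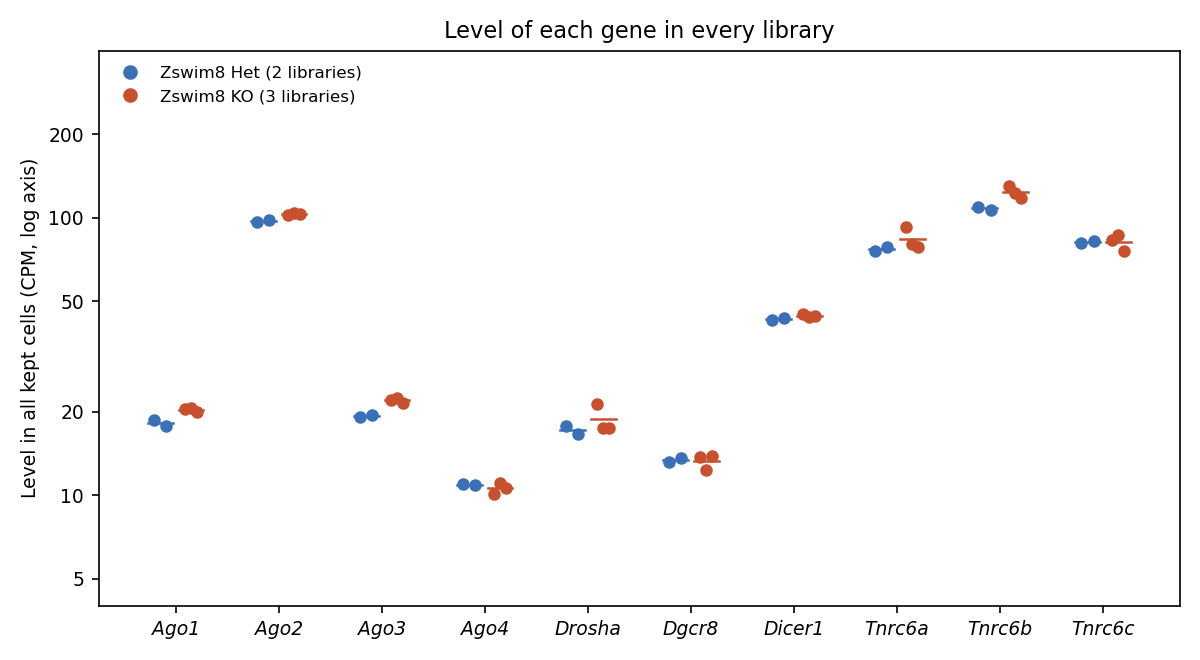
Level of each of the 10 genes in all kept cells of each library (CPM on a log axis); points are libraries, short lines are group means, blue for the 2 Het and orange for the 3 KO libraries. The 3 KO points of Tnrc6b (118 to 131 CPM) lie above both Het points (107 and 110 CPM), while for Dgcr8 and Tnrc6c the groups overlap.

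Among the processing genes, Drosha was at 17.8 and 16.6 CPM in Het and at 21.3, 17.4 and 17.5 CPM in KO. The groups overlapped, and KO library 1 alone stood apart (log2 fold change 0.12 ± 0.11 SE, adjusted p = 0.513). Dgcr8 was at 13.1 and 13.6 CPM in Het and at 13.8, 12.3 and 13.8 CPM in KO, a log2 difference of -0.01 with a 95% interval of -0.21 to 0.20. Dicer1 was at 42.8 and 43.5 CPM in Het and 44.9, 43.8 and 44.4 CPM in KO. All 3 KO values were above both Het values, yet the difference was 0.04 on the log2 scale (adjusted p = 0.647).

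Among the Argonautes, Ago2, the only catalytic member in mammals, supplied most of the UMIs: 65.7% to 67.2% of all Argonaute UMIs in every library, against 6.51% to 7.56% for Ago4. Ago3 was at 19.1 and 19.5 CPM in Het and at 22.0, 22.4 and 21.5 CPM in KO. The groups did not overlap, and the log2 fold change was 0.19 ± 0.06 (SE), with an adjusted p of 0.129. Ago1 was at 18.6 and 17.8 CPM in Het and at 20.4, 20.6 and 19.97 CPM in KO (log2 fold change 0.16 ± 0.06, adjusted p = 0.185). Ago2 ran from 96.4 to 98.5 CPM in Het and from 102 to 104 CPM in KO (0.08, adjusted p = 0.328), and Ago4, at 10.1 to 11.1 CPM over all 5 libraries, overlapped between the groups.

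Among the scaffolds, Tnrc6b was at 110 and 107 CPM in Het and at 131, 123 and 118 CPM in KO. Its groups did not overlap, and its log2 fold change of 0.20 (95% interval 0.05 to 0.35) had an adjusted p of 0.120. Tnrc6a was at 75.8 and 78.2 CPM in Het and at 92.5, 80.7 and 78.6 CPM in KO, where KO library 1 was the highest (0.12, adjusted p = 0.385). Tnrc6c was at 81.1 and 82.6 CPM against 83.0, 86.8 and 76.1 CPM, with KO values on both sides of the Het values. With edgeR 0 of 10 genes passed, with 3 at an unadjusted p under 0.05 (Ago1, Ago3 and Tnrc6b), and DESeq2 also called 0; over all genes edgeR called 4.1% and 25.7% had an unadjusted p under 0.05. In 6 of the 10 (Ago1, Ago2, Ago3, Dicer1, Tnrc6a and Tnrc6b) all KO libraries were above both Het libraries, an order that 23.3% of all genes showed (46.9% in either direction). The median log2 fold change was 0.10 over the 10 and 0.01 over all genes.

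Within the 4 lineages, defined by markers as epithelial, endothelial, mesenchymal and immune, again none of the 10 genes passed. The largest differences were in the epithelium, where Tnrc6b and Ago3 were higher in every KO library. Over the whole table, 7.14% of genes were called in epithelium, 5.81% in endothelium, 0.0727% in mesenchyme and 8.5% among immune cells. DESeq2 called 0 of the 10 in each lineage, and edgeR's unadjusted p was under 0.05 for 3, 0, 1 and 2 of them.

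**Figure D2:**
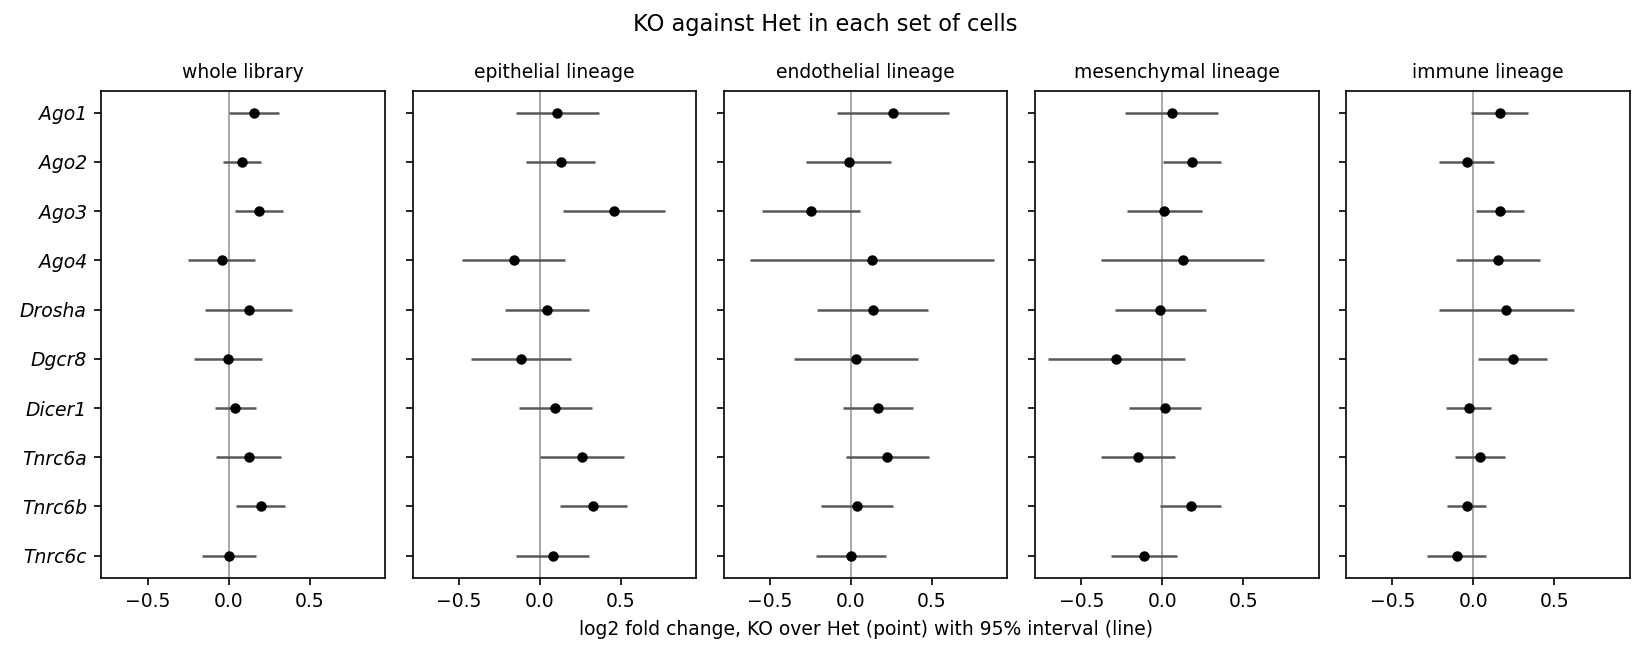
The log2 fold change of KO over Het (points) with its 95% interval (lines) for the 10 genes in all kept cells and in each of the 4 lineages, 2 Het and 3 KO libraries in each fit. The intervals of Tnrc6b and Ago3 in the epithelial lineage run from 0.12 to 0.54 and from 0.14 to 0.77, and most others span 0.

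In the epithelial lineage Tnrc6b was at 118 and 117 CPM in Het and at 159, 142 and 144 CPM in KO. The lowest KO library was above both Het libraries, at 0.33 ± 0.09 (SE) on the log2 scale, adjusted p = 0.0632. Ago3 was at 12.4 and 13.4 CPM in Het and at 18.2, 19.2 and 15.9 CPM in KO. Its groups did not overlap either, at a log2 fold change of 0.46 ± 0.14 and an adjusted p of 0.0781. Tnrc6a was at 83.0 and 79.4 CPM in Het and at 111, 91.4 and 90.3 CPM in KO, a log2 fold change of 0.26 that was 0.16 without KO library 1. In all, 6 of the 10 genes were higher in every KO library than in both Het libraries, against 22.2% of all genes (43.9% in either direction).

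These epithelial differences sat close to the threshold. At a finer clustering (Leiden resolution 2), which moves the edge of the lineage, both passed (Tnrc6b 0.37, adjusted p = 0.0353; Ago3 0.49, adjusted p = 0.0377); with sex as a covariate the log2 fold changes were 0.29 for Tnrc6b (adjusted p = 0.319) and 0.30 for Ago3 (adjusted p = 0.420). The epithelium also differed in makeup: alveolar type 1 (AT1)-like cells made up 32.1% and 38.1% of epithelial cells in Het and 21.5%, 24.8% and 27.4% in KO. In AT1-like cells alone, a check chosen after seeing the data, the log2 fold changes were 0.22 for Tnrc6b and 0.28 for Ago3, with adjusted p of 0.367 and 0.702. In AT2-like cells, where 16% of all genes were called and 49% did not overlap, Tnrc6b was at 126 and 123 CPM in Het and 170, 145 and 148 CPM in KO (log2 fold change 0.31, adjusted p = 0.0791). That difference was 0.32 in the single AT2 cluster led by Egfl6, Slc34a2 and Sftpc, also chosen after seeing the data. This cluster held 34.8% and 50.6% of AT2-like cells in Het and 77.0%, 80.0% and 69.5% in KO. Its own makeup by genotype was not tested. At Leiden resolution 2 an AT2-like cluster led by Foxp2 and Egfl6 held 25 and 27 Het cells and 96, 109 and 142 KO cells. An unnamed cluster led by Lyz1 and Scd1 held 86 and 100 against 22, 12 and 27.

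The other lineages gave smaller or opposite differences, and none passed. In endothelial cells Ago3 was lower in KO, at 26.1 and 26.9 CPM in Het and 20.9, 24.1 and 21.9 CPM in KO. Those groups did not overlap (log2 fold change -0.25, adjusted p = 0.332), in the opposite direction to the epithelium. The endothelium differed in makeup too: aerocyte-like cells, the second capillary type, were 58 of 446 and 41 of 311 cells in Het and 1 of 291, 2 of 299 and 0 of 294 in KO (0 allows up to 1.02%, counting error only), and lymphatic-like cells were 2.69% and 1.93% against 13.1%, 6.69% and 10.9%. Without aerocyte-like cells, a check chosen after seeing the data, the Ago3 difference was -0.31 (adjusted p = 0.264), and in general capillary-like cells alone it was 0.01, with groups that overlapped. In mesenchymal cells Ago2 was at 114 and 108 CPM in Het and 131, 123 and 122 CPM in KO (0.18, adjusted p = 0.400). In immune cells Dgcr8 was at 9.78 and 10.7 CPM in Het and at 12.6, 11.8 and 12.002 CPM in KO (0.24, adjusted p = 0.160). That difference was 0.16 without the immune cluster led by Spp1 and Atp6v0d2, also a check chosen after seeing the data; the cluster held 6.75% and 7.52% of immune cells in Het and 0.638%, 0.894% and 1.196% in KO. Groups that did not overlap were found for 4 of the 10 genes in endothelium, 3 in mesenchyme and 4 among immune cells, against 39.7%, 30.8% and 42.8% of all genes.

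Whether the KO minus Het difference itself differed between lineages was tested in 1 fit over all 20 sums, and 0 of the 10 genes passed, against 8.42% of all genes (edgeR; 3 of the 10 at an unadjusted p under 0.05; DESeq2 was not run on this term). By this joint F test over the lineage terms the closest was Ago3 (adjusted p = 0.0641), followed by Tnrc6a (0.0800) and Tnrc6b (0.127). The endothelial minus epithelial difference of Ago3, -0.65 on the log2 scale, was not tested on its own. With scaling by library size alone 1 of the 10 passed.

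Genotype was also compared inside the 5 classes that reached 100 cells per library (AT2, general capillary, macrophage, monocyte and neutrophil-like), and 0 of the tested members passed. General capillary-like cells, where 6.72% of all genes were called, had 6 of 9 tested members higher in every KO library, against 18.4% of all genes (37.8% in either direction). There Ago1 was at 18.2 and 16.0 CPM in Het and 21.4, 24.7 and 23.2 CPM in KO (0.44 ± 0.18, adjusted p = 0.190). Dicer1 was at 61.2 and 66.9 CPM in Het and 83.4, 73.3 and 77.8 CPM in KO (0.28, adjusted p = 0.194). In both genes the lowest KO library exceeded the highest Het library. In macrophage, monocyte and neutrophil-like cells, 3 of 10, 2 of 10 and 3 of 5 tested members had groups that did not overlap, in both directions. Over all genes the shares were 46.2%, 31.9% and 25.7%, and genes called made up 15.4%, 1.52% and 0.0558%. Macrophage-like cells sat in different clusters by genotype: the cluster led by Plet1 and Ear2 held 75.4% and 75.6% of them in Het and 42.9%, 49.3% and 52.6% in KO, and the cluster led by Ccl7 and Ccl12 held 12.2% and 11.5% against 38.9%, 27.9% and 26.5%. Ago3, at 0.17 over the whole class, was at -0.06 in the first cluster alone and at 0.14 in the second, and no member passed in either. The unadjusted p was under 0.05 for 2 of 10 members in AT2-like, 3 of 9 in general capillary-like and 0 in the other 3 classes, and DESeq2 called 0 in all 5.

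Levels differed between cell lineages for most of the genes: 27 of 40 tests of a lineage against the mean of the other 3 passed, with the library as a block. Ago4 was highest in epithelium and very low in endothelium, Dicer1 was highest in endothelium, Drosha was lowest in immune cells, and 8 of the 10 genes differed in mesenchyme, all higher there except Dicer1. The members and the other pathway genes were left out of the genes used to cluster. Called genes were common everywhere, at 76.8% for epithelium, 67.1% for endothelium, 74.7% for mesenchyme and 85.4% for immune cells, so 6, 5, 8 and 8 members called are shares near or below the background.

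Ago4 was at 17.0, 17.8, 17.1, 14.3 and 14.1 CPM in the epithelium of Het 1, Het 2, KO 1, KO 2 and KO 3. In endothelium of those embryos it was at 2.94, 3.23, 3.21, 3.92 and 3.05 CPM. The lineages did not overlap, with a log2 difference from the other lineages of 1.17 ± 0.10 (SE) in epithelium (adjusted p = 7.82e-09) and -1.90 ± 0.15 in endothelium (adjusted p = 4.95e-09). Within the Argonaute family, a share that no scaling between lineages touches, Ago4 gave 9.91% to 13.5% of UMIs in epithelium and 2.11% to 2.65% in endothelium.

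Dicer1 was at 59.97, 61.6, 68.4, 68.8 and 68.0 CPM in endothelium (Het 1 to KO 3). Every endothelial value was above every value of the other 3 lineages, whose means were 50.7 CPM in immune, 39.1 CPM in epithelial and 36.6 CPM in mesenchymal cells, and the log2 difference was 0.65 ± 0.05 (adjusted p = 1.56e-09). In immune cells Dicer1 was called higher by 0.16, a direction that turned to -0.14 with scaling by library size alone. Drosha was at 13.8, 12.3, 19.5, 12.8 and 13.2 CPM in immune cells, and its means were 20.9 to 22.3 CPM in the other lineages. KO library 1 was high, and without it the log2 difference went from -0.63 to -0.72. Dgcr8, at lineage means of 13.3 to 14.4 CPM on the scale of this fit, was called in none of the 4 lineages (with scaling by library size alone it was lower in immune cells, -0.39).

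Ago3 was lowest in epithelium, at 12.004 to 18.2 CPM over the 5 libraries (log2 difference -0.73), and averaged 22.0 to 26.2 CPM elsewhere. Ago2 was lowest there too, at 83.9 ± 5.31 CPM (SD, n = 5), against 117 ± 8.25 CPM in mesenchyme and 118 ± 7.46 CPM in immune cells. Its call in immune cells (0.27) went to -0.03 and that in endothelium (-0.15) to 0.01 with scaling by library size alone. In mesenchyme Ago1 (25.3 CPM, 0.33), Tnrc6a (102 CPM, 0.29), Tnrc6b (157 CPM, 0.42) and Tnrc6c (101 CPM, 0.25) were all higher than in the other lineages, and in immune cells these 4 were lower by 0.23 to 0.45. The median log2 difference of the 10 genes in mesenchyme was 0.28, against -0.04 over all genes.

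Across 15 finer cell classes, 85 of 150 tests of a member in a class against the mean of the other 14 passed. Over all genes the share called was 41.9% in airway secretory, 46.5% in arterial and alveolar fibroblast, 50.5% in alveolar myofibroblast, 51.4% in AT1, 52.3% in dendritic, 53.7% in smooth muscle and 56.2% in general capillary-like cells. It was 58.6% in mesothelial, 58.8% in AT2, 59.1% in adventitial fibroblast, 64% in neutrophil, 66.1% in monocyte, 68% in macrophage and 70.2% in ciliated-like cells. With TMM scaling Tnrc6a and Tnrc6c were the most even, with a mean 1.98 and 2.07 times higher in the highest than in the lowest class. Ago2, at 4.51 over all 15 classes, was at 2.13 without neutrophil-like cells. By library size alone Ago2 was the most even, at 2.47, against 2.99 for Tnrc6a and 3.13 for Tnrc6c. Ago4, Ago1 and Drosha varied most, by 10.9, 9.87 and 9.55 times. Mesothelial-like cells were lowest for Ago4 and neutrophil-like cells for Ago1 and Drosha, on so few UMIs that their distance from background is not known. The order of these 3 folds depends on that class and on scaling. Over the 14 other classes they were 10.9, 4.39 and 4.69, and with scaling by library size alone over all 15 they were 8.66, 21.6 and 22.3. In the order of the class means, neighbours nearly always overlapped over the 5 libraries (12 to 14 of 14 neighbours per gene), so only distant classes were separated.

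**Figure D3:**
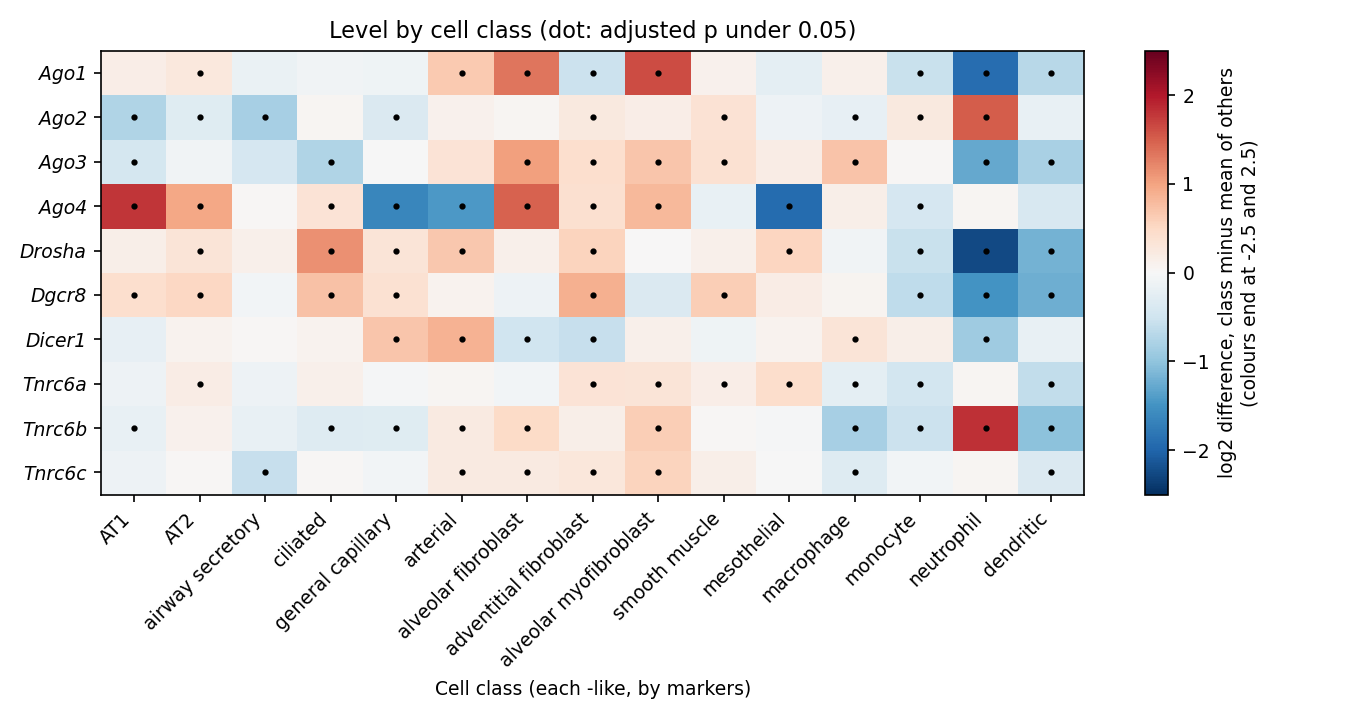
The log2 difference of each gene's level in a cell class from the mean of the other 14 classes (colour), with a dot where the adjusted p was under 0.05, from 5 libraries per class. Neutrophil-like cells stand out in the Ago2 and Tnrc6b rows (1.51 and 1.82) and in the Drosha row (-2.26), and AT1-like cells in the Ago4 row (1.78).

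Of the processing genes, Drosha was highest in ciliated-like cells, the airway cells that bear motile cilia, at 34.6, 33.8, 33.4, 32.4 and 29.2 CPM. All 5 libraries were above every library of the other classes, except for KO library 1, which reached 40.3 CPM in arterial-like and 29.9 CPM in airway secretory-like cells. The log2 difference in ciliated-like cells was 1.15 (adjusted p = 3.42e-17). Dgcr8 was also high in ciliated-like cells (16.5 ± 1.68 CPM, 0.72) and highest in adventitial fibroblast-like cells (18.8 ± 2.90 CPM, 0.89). Some class sums include clusters of cycling cells, described further on, such as 57 of the 738 adventitial fibroblast-like cells. The part of cycling cells in this order was not tested. Over the 15 classes the log2 levels of Drosha and Dgcr8 went together, at a Pearson r of 0.889 and 0.860 without neutrophil-like cells; the 15 points share libraries and scaling, so this is a description.

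Dicer1 was highest in vessel-lining cells. In arterial-like cells it was at 61.7, 64.1, 72.3, 75.8 and 67.0 CPM (0.87, adjusted p = 2.93e-13). In general capillary-like cells, on the scale of the fit by class, it was at 51.7, 56.4, 69.2, 61.8 and 65.8 CPM (0.69, adjusted p = 1.30e-13). The 2 classes overlapped, and each was above the next class, macrophage-like cells at 45.8 to 51.0 CPM. The lowest levels outside neutrophil-like cells were in fibroblasts, at 27.2 ± 2.498 CPM in adventitial and 27.6 ± 4.82 CPM in alveolar fibroblast-like cells.

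**Figure D4:**
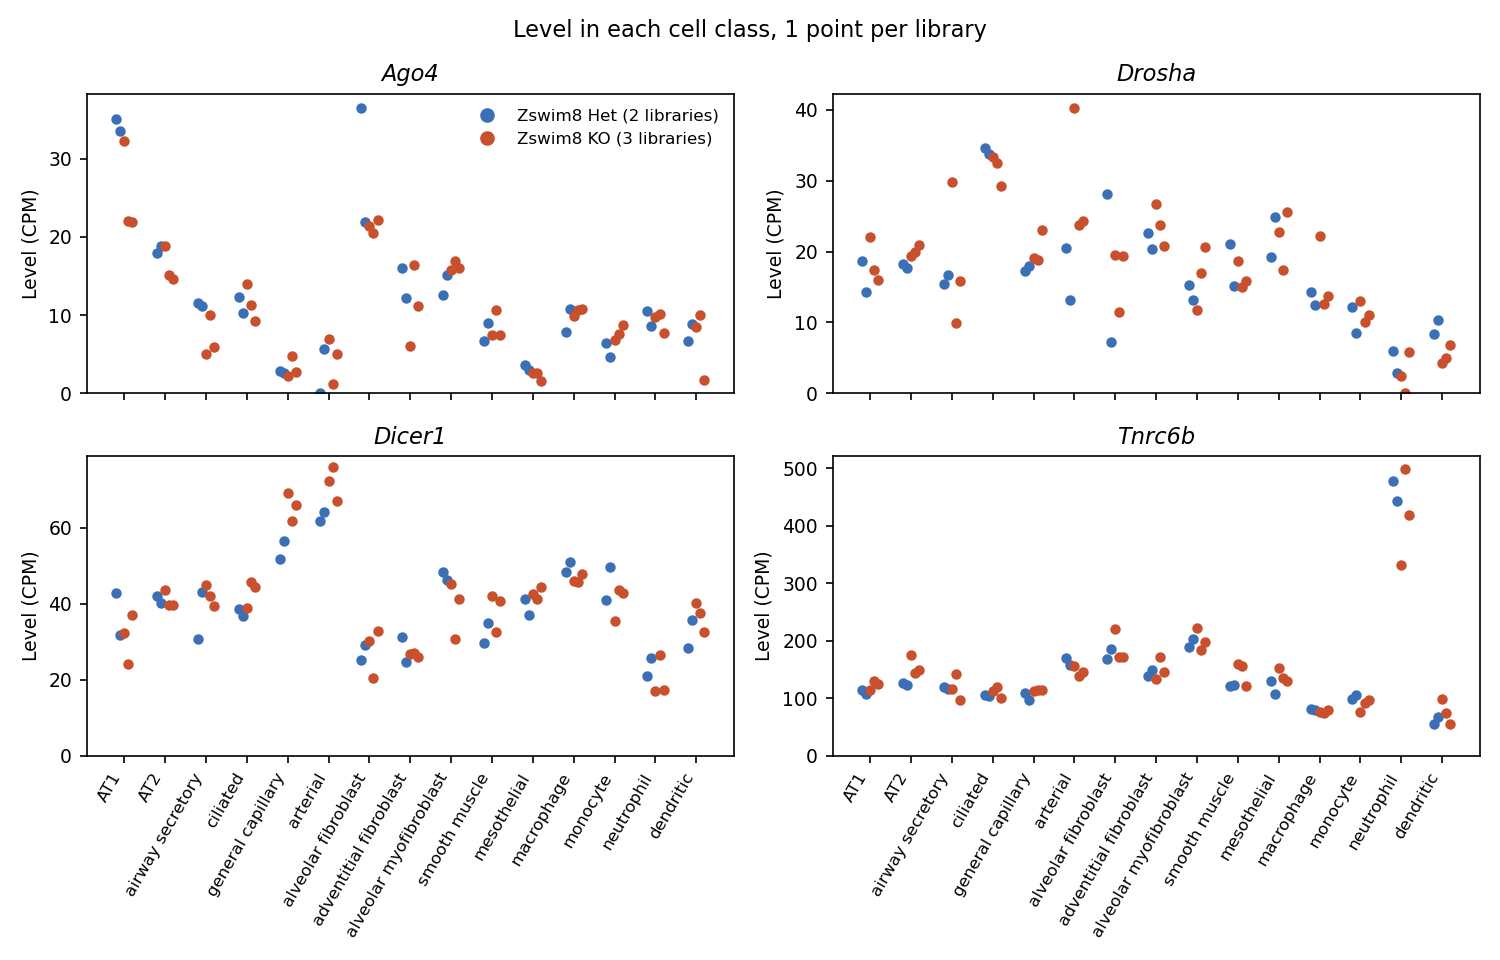
Level (CPM, linear axis from 0) of Ago4, Drosha, Dicer1 and Tnrc6b in each of 15 cell classes, 1 point per library, blue for Het and orange for KO. Ago4 points reach 35.1 CPM in AT1-like cells and reach at most 6.95 CPM in general capillary, arterial and mesothelial-like cells. On this TMM scale Tnrc6b in neutrophil-like cells (332 to 499 CPM) lies above every other class.

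By class mean, Ago4 was highest in AT1-like cells, the flat gas-exchange cells. It was at 35.1 and 33.6 CPM there in Het and 32.2, 22.0 and 21.9 CPM in KO (1.78, adjusted p = 4.22e-18). It gave 16.9% to 30.2% of Argonaute UMIs there, and Ago2 gave 38.1% to 56.7%. The 3 KO values were below both Het values; in AT1-like cells alone the log2 fold change was -0.47 with an adjusted p of 0.250. Alveolar fibroblast-like cells averaged 24.5 ± 6.73 CPM, with Het library 1 at 36.5 CPM and the others at 20.5 to 22.2 CPM, and AT2-like cells 17.1 ± 2.06 CPM. At the other end stood mesothelial (2.64 CPM), general capillary (3.03 CPM) and arterial-like cells (3.75 CPM, 15 UMIs in all), which overlapped. Red-cell barcodes, scaled without haemoglobin and so not on the scale of this fit, held Ago4 at 3.96 to 11.6 CPM. Per barcode they held 0.0030 UMIs of it, against 0.0966, 0.0404 and 0.0777 in mesothelial, general capillary and arterial-like cells.

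Ago1 was highest in alveolar myofibroblast-like cells, at 54.7, 44.4, 57.0, 48.8 and 61.9 CPM, and next in alveolar fibroblast-like cells, at 36.5 to 50.5 CPM. These 2 classes overlapped (log2 differences 1.63 and 1.33), and every library of the first was above the highest library of any remaining class, 37.9 CPM in arterial-like cells. Ago3 was highest in alveolar fibroblast-like cells (36.6 ± 5.75 CPM, 1.03) and was also high in macrophage-like cells (29.0 ± 2.30 CPM, 0.71). Ago1 and Ago3, neighbours on chromosome 4, had a Pearson r of 0.763 over the 15 classes, and 0.634 without neutrophil-like cells. Ago4, on the other side of Ago1, had an r of 0.317 with Ago1 and 0.079 with Ago3 (0.407 and 0.109 without neutrophil-like cells). The 15 points share libraries and scaling, so these are descriptions.

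In neutrophil-like cells 1 Argonaute and 1 scaffold were high and the Microprocessor genes rested on few UMIs. With TMM scaling Ago2 was at 243, 285, 252, 295 and 275 CPM, above the highest library of any other class (155 CPM). On the same scale Tnrc6b was at 478, 443, 332, 499 and 419 CPM, against at most 223 CPM elsewhere. The order of the classes by library size alone is not given here, so this separation is stated for TMM scaling only. The log2 differences were 1.51 and 1.82 and the median over all genes in this class was -0.46. These cells were shallow, with a median of 3704.5 to 4085.5 UMIs in 1151 cells, and scaling mattered: by library size alone the 2 differences were 0.49 and 0.80, still called, beside a median over all genes of -1.46. Tnrc6a and Tnrc6c, at 0.05 each and not called, went to -0.98 and -0.99.

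Shares within a family need no scaling between classes. Ago2 gave 90.4% to 93.7% of Argonaute UMIs in neutrophil-like cells of every library, and at most 85.9% in any library of another class. Tnrc6b gave 67.2% to 75.2% of Tnrc6 UMIs there, and at most 55.6% in any library of another class. Ago1 gave 15, Drosha 10 and Dgcr8 11 UMIs over the 1151 cells. By library size these were 2.15 to 3.31, 0 to 3.12 and 0.718 to 3.31 CPM, below their levels in red-cell barcodes (4.88 to 10.999, 3.66 to 13.999 and 3.98 to 10.7 CPM after haemoglobin was set aside). Counted per barcode, neutrophil-like cells were higher, at 0.0130, 0.0087 and 0.0096 UMIs against 0.0031, 0.0041 and 0.0033. Over libraries, Ago1 alone did not overlap on that scale. The scales disagree, so whether these few UMIs are background cannot be told. Ago2 at 116 to 160 CPM and Tnrc6b at 192 to 271 CPM by library size were above theirs in red-cell barcodes (45.1 to 68.0 and 39.6 to 73.0 CPM).

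Other Tnrc6 extremes were modest. Tnrc6b was lowest in dendritic (70.2 ± 18.2 CPM, -1.02) and macrophage-like cells (78.3 ± 2.73 CPM, -0.83). Tnrc6a was lowest in dendritic-like cells (54.6 ± 4.81 CPM) and highest in mesothelial-like cells (108 ± 13.2 CPM), and Tnrc6c ran from 58.6 ± 17.6 CPM in airway secretory to 121 ± 3.58 CPM in alveolar myofibroblast-like cells. The correlation of Ago2 with Tnrc6b over classes, r = 0.688, was 0.271 without neutrophil-like cells.

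By likeness of the mean log2(CPM + 1) over the 15 classes, among 9028 genes at 10 CPM or more, the closest genes at r of 0.9 or above were the following. Ago4 ran like Phlda1 (0.934, and 0.935 without neutrophil-like cells), and Tnrc6a like Sntb2 (0.920, and 0.920 without them) and Brd3 (0.9002, and 0.901). The other pairs fell below 0.9 without neutrophil-like cells. Drosha ran like Yeats2 (0.942, and 0.867 without them) and Gnpda2 (0.940, and 0.892), and Dgcr8 like Pgpep1 (0.911, and 0.893) and Abhd4 (0.902, and 0.853). Ago1 ran like Socs2 (0.914, and 0.862) and Ago3 like Tex10 (0.907, and 0.897), and Tnrc6b like Ogt (0.925) and Efcab14 (0.922), both 0.829 without them. Ago2, Dicer1 and Tnrc6c had no gene at that likeness.

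In dividing cells Dgcr8 was raised, and Drosha was not called. Cycling cells, from clusters that carried all 12 cell-cycle markers used, Mki67 and Top2a among them, were compared with the other cells of the same lineage and library in the endothelial (34 to 47 cycling cells per library) and immune lineages (130 to 311). Among immune cells Dgcr8 went from 7.76, 7.75, 9.50, 9.30 and 8.85 CPM in other cells to 18.9, 21.6, 25.3, 22.7 and 21.3 CPM in cycling cells. It was higher in 5 of 5 libraries, with no overlap (log2 difference 1.34 ± 0.08 SE, adjusted p = 1.36e-07). Among endothelial cells it went from 12.9, 11.8, 15.7, 13.4 and 13.3 CPM to 32.0, 28.6, 24.8, 22.6 and 23.1 CPM, again in 5 of 5 libraries without overlap (0.95 ± 0.20, adjusted p = 8.44e-04), on 90 UMIs in cycling cells in all.

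**Figure D5:**
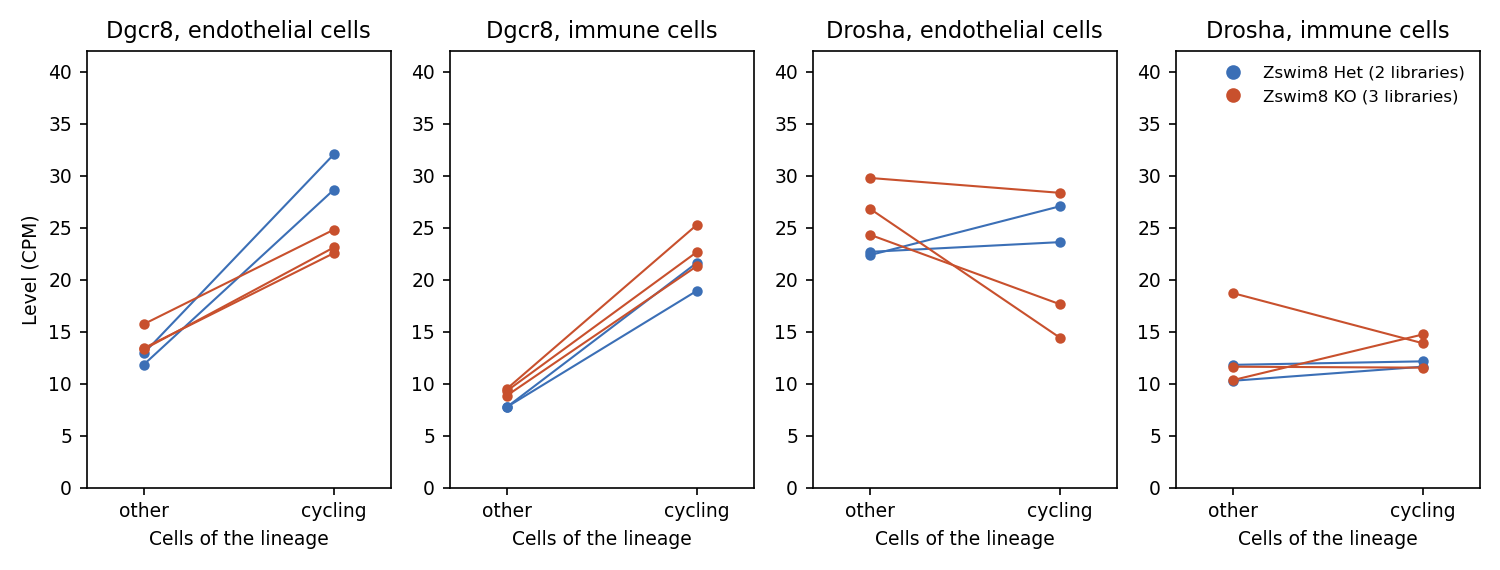
Level (CPM) of Dgcr8 and Drosha in cycling and in other cells of the endothelial and immune lineages; each line joins the 2 values of 1 library, blue for Het and orange for KO. All 10 Dgcr8 lines rise, while the Drosha lines go in both directions.

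Drosha, whose start region is printed above beside that of Dgcr8, was at 11.8, 10.3, 18.7, 10.3 and 11.6 CPM in other immune cells and 12.2, 11.6, 13.9, 14.7 and 11.5 CPM in cycling ones (0.07, adjusted p = 0.649). In endothelial cells its difference was -0.21 (adjusted p = 0.451). The values overlapped in both lineages. Trmt2a, which overlaps the end of Dgcr8, was not called in either (0.18, adjusted p = 0.0656 in immune; 0.31, adjusted p = 0.460 in endothelial cells). The difference between the 2 genes' changes was not tested.

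Of the remaining members, Dicer1 (0.30, adjusted p = 5.88e-04) and Tnrc6a (0.23, adjusted p = 1.63e-03) rose in cycling immune cells in 5 of 5 libraries, Ago2 rose by 0.12 (adjusted p = 0.0358), Tnrc6b fell by 0.15 in 5 of 5 libraries (adjusted p = 0.0104) and Ago4 fell by 0.45 (adjusted p = 0.0427). The calls of Ago4 and Tnrc6b were lost with scaling by library size alone (-0.34 and -0.04), where Tnrc6c was called instead (0.21, adjusted p = 0.0025; 0.10 in the TMM fit), and those of Ago2 and Ago4 without Het library 2, KO library 1, KO library 2 or KO library 3. Thus 6 of 10 members were called in immune cells, where 61.8% of all genes were, and 1 of 9 in endothelial cells (31% of all genes), or 2 without KO library 2, when Ago1 also passed (-0.91, adjusted p = 0.0133). The median difference over the members was 0.08 in immune and 0.00 in endothelial cells, beside -0.02 over all genes in each. Cycling and other cells of a lineage can hold different mixes of classes, and the part of that mix in these differences was not tested.

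The wider pathway was read from 85 further genes in 5 lists: other Microprocessor and nuclear processing factors (20), export and Dicer partners (6), Argonaute loading, modification and stability (21), deadenylation, decapping and decay of silenced mRNA (26), and microRNA tailing, trimming and decay (12). In whole lung 0 of 85 were called between KO and Het, where 4.1% of all genes were, and in mesenchyme 0 of 83. The epithelial lineage had 2 higher and 0 lower of 83, the endothelial 2 higher and 2 lower of 83, and the immune 3 higher and 1 lower of 84. These are 2.41%, 4.82% and 4.76% of the genes tested, below the 7.14%, 5.81% and 8.5% called over all genes, and the calls described next are those of single genes. The median log2 fold change of these genes was 0.03 in whole lung, 0.09 in epithelium, 0.01 in endothelium, 0.05 in mesenchyme and 0.00 in immune cells. By class, 6 of 83 were called in AT2-like, 6 of 82 in general capillary-like and 9 of 83 in macrophage-like cells (16%, 6.72% and 15.4% of all genes). In monocyte-like cells 1 of 81 was called and in neutrophil-like cells 0 of 56 (1.52% and 0.0558% of all genes).

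Both epithelial genes encode RNA-binding proteins of the nuclear processing list. Tardbp (TDP-43) was at 114 and 106 CPM in Het and at 152, 156 and 143 CPM in KO, without overlap (0.45 ± 0.09 SE, adjusted p = 0.0242). Hnrnpa1 was at 266 and 253 CPM in Het and at 318, 415 and 410 CPM in KO, also without overlap (0.55, adjusted p = 0.0389). In endothelium Erh, a small protein that helps the Microprocessor cut suboptimal hairpins, was at 98.2 and 112 CPM in Het and 146, 154 and 179 CPM in KO (0.60, adjusted p = 0.0209), and Ran, the GTPase that drives hairpin export, differed by 0.45 (adjusted p = 0.0422). Lower in KO endothelium were Fkbp5, a co-chaperone of Hsp90 (-0.58, adjusted p = 0.0297), and Adar, which edits double-stranded RNA (-0.91, adjusted p = 0.0466).

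Among immune cells Erh (0.31, adjusted p = 0.0431) and Tut4, a terminal uridylyltransferase (0.28, adjusted p = 0.0408), were higher in KO. Xrn1, the 5′ to 3′ exonuclease, was lower (-0.28, adjusted p = 0.0416). Lin28b, which blocks let-7 processing, was called higher (1.28, adjusted p = 0.0415) on 15 and 19 UMIs in Het and 16, 36 and 48 UMIs in KO. These 10 calls by lineage sat close to the threshold. With sex as a covariate 9 of the 10 were lost, where the log2 fold changes were 0.774 to 1.299 times those of the fit without it, 7 of them larger. All 10 were lost without Het library 1 or without Het library 2, at 0.823 to 1.16 and 0.862 to 1.18 times; the lone Het library is then assumed to vary like the KO libraries. In the checks chosen after seeing the data, Adar (-0.91, adjusted p = 0.0639) and Ran (0.41, adjusted p = 0.0777) were lost in endothelium without aerocyte-like cells, and Erh, Tut4 and Lin28b (adjusted p = 0.0607, 0.139 and 0.0560) in immune cells without the Spp1 cluster. Within single classes the smallest adjusted p were those of Tut4 in macrophage-like (0.79, 4.57e-04) and Tardbp in AT2-like cells (0.62, 2.86e-03). Next were Erh (0.64, 4.25e-03) and Hnrnpa1 (0.50, 8.81e-03) in general capillary-like cells. Other class calls of these genes had adjusted p of 0.0125 to 0.0444. Among them, in general capillary-like cells alone, were Adar (-0.98, adjusted p = 0.0125) and Ran (0.39, adjusted p = 0.0310). Adar was also lower in macrophage-like (-0.52, adjusted p = 0.0213) and monocyte-like cells (-0.75, adjusted p = 0.0178). It was not called in AT2-like or neutrophil-like cells. Class calls were not run under the alternatives, and AT2-like and macrophage-like cells differed in makeup as given above.

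In cycling cells the nuclear processing list was mostly higher. Among immune cells 14 of 19 tested were called higher and 2 lower (median log2 difference 0.42), and among endothelial cells 11 of 18 higher and 0 lower (0.36), beside 30.3% and 15.6% of all genes called higher. The rise was not particular to that list. Of the export and Dicer partners, 5 of 6 were called higher and 1 lower in immune cells (0.67). In endothelial cells 3 of 6 were called higher and 0 lower (0.54). Medians of the remaining lists were 0.13 to 0.21 in immune and 0.02 to 0.15 in endothelial cells. Over all 85 genes, 49 of 83 tested were called higher and 11 lower in immune cells, and 23 of 82 higher and 2 lower in endothelial cells.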

How the data were processed

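Single-cell suspensions from 5 lungs were captured with a 3′ tag kit, and the authors deposited 1 matrix of UMI counts per library (whole numbers per gene and barcode, not normalized), made with Cell Ranger 4.0.0 on mm10 per the submitters' processing notes. Whether counting used strand is not given in the sources used here. A barcode needed 500 genes and a mitochondrial share of 15% or less, red-cell barcodes were set aside, doublets were removed by a score, and cells were clustered (2000 variable genes, 30 components, Leiden resolution 1) without the genes studied here. Lineages and classes were named from fixed markers. UMIs were summed per library and cell group, since cells are not replicates, and tested with edgeR 4.0.16 (quasi-likelihood, TMM, filterByExpr, Benjamini-Hochberg 0.05) in R 4.3.3, after a check on simulated data. Classes entered level tests with at least 20 cells per library and genotype tests with at least 100. Lineage, class and cycling fits held the library as a block. Alternatives were DESeq2 1.42.0, library-size scaling, no filter, stricter cells, doublets kept, other resolutions, a replicate block, sex, and leaving out 1 library at a time. Named were all 10 genes, up to 3 further pathway genes per direction and fit (largest fold change among those called without overlap), and the 2 genes of highest likeness at r of 0.9 or above. The members and lists were chosen with earlier results of these data known. Of total counts of 56608582 to 93708304 UMIs per library, kept cells held 40579983 to 64677382. Those kept cells gave each member 406 to 7800 UMIs per library.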

Additional observations from a re-analysis of the deposited data

Results flagged for a closer look

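Red-cell barcodes, rich in haemoglobin, are outside every comparison of genotype above, and 5 of the 10 genes were higher there in all 3 KO libraries than in both Het libraries. With haemoglobin UMIs set aside, the mean over the KO libraries was 8.46 CPM for Ago1, 9.34 CPM for Ago3, 21.7 CPM for Dicer1, 46.7 CPM for Tnrc6a and 59.5 CPM for Tnrc6b, against 5.33, 5.64, 15.5, 29.4 and 39.6 CPM over the Het libraries. KO library 1 was the highest for each of the 5. Over all 8581 genes, 19.4% had this order and 7.74% the opposite one. Ago1 rests on 8 to 19 UMIs per library and Ago3 on 9 to 19, and the differences were not tested.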

How the results depend on the processing

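Of 1249 values of a member between KO and Het under an alternative, 1245 kept their side of the threshold and 4 passed it: 1 of 10 members (Tnrc6b) in AT2-like cells with library size alone, 1 of 10 (Ago3) there with a replicate block, and 2 of 10 (Tnrc6b and Ago3) in epithelium at Leiden resolution 2. Of these 1249 values, 124 changed sign and were called in neither fit. By genotype and lineage together, 1 of 10 passed with library size alone. The counts of all genes called moved more. With sex as a covariate they were 0 in whole lung (727 without it), 535 in epithelium (1064), 177 in endothelium (686), 0 in mesenchyme (10), 333 in immune cells (1178), 629 in AT2-like (2120), 186 in general capillary-like (706), 825 in macrophage-like (1887), 11 in monocyte-like (160) and 0 in neutrophil-like cells (3). With the replicate block they were 9 in whole lung, 242 in endothelium, 5 in mesenchyme, 393 in monocyte-like and 91 in neutrophil-like cells. The labels share only a number between groups, and the deviations of same-numbered libraries correlated at -0.128 in both pairs. With DESeq2 they were 2155 in whole lung, 126 in mesenchyme, 448 in general capillary-like and 15 in neutrophil-like cells. With no low-count filter they were 1838 in epithelium, 1623 in endothelium, 319 in mesenchyme, 1145 in general capillary-like, 543 in monocyte-like and 97 in neutrophil-like cells. Leiden resolution 2 gave 2298 in epithelium and library size alone 1 in neutrophil-like cells. Alternatives chosen after seeing the data gave 487 in AT1-like cells for epithelium, 391 in endothelium without aerocyte-like cells, and 634 and 136 in the macrophage clusters led by Plet1 and by Ccl7.

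Leaving out 1 library gave 2 to 906 genes called in whole lung, 445 to 869 in epithelium, 125 to 1072 in endothelium, 0 to 141 in mesenchyme, 204 to 1434 in immune, 795 to 2320 in AT2-like, 157 to 902 in general capillary-like, 750 to 2000 in macrophage-like, 1 to 557 in monocyte-like and 0 to 82 in neutrophil-like cells, 306 to 1052 for genotype by lineage, and 1 to 2 members in cycling endothelium. Scaling by library size alone reversed 10 levels. By lineage these were Ago2 in endothelium (0.0097) and immune cells (-0.026) and Dicer1 in immune cells (-0.136). By class they were Tnrc6a (0.24) and Tnrc6c (0.20) in general capillary-like, Tnrc6b (0.21) and Tnrc6c (0.23) in mesothelial-like, and Ago4 (-0.99), Tnrc6a (-0.98) and Tnrc6c (-0.99) in neutrophil-like cells. The cause was not tested. Depth limits Ago4 in endothelium and Ago1, Drosha and Dgcr8 in neutrophil-like cells, and intervals cover only the spread between 2 Het and 3 KO libraries.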
